A study of Arabidopsis thaliana with 12 samples.

Results

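AT5G15280, AT4G04370 and OTP70 are Arabidopsis thaliana genes for pentatricopeptide repeat proteins. They were chosen because their array values differed between plants given proline and plants given water, so their levels in these 2 groups are described here without a test. Each of the 3 genes has 1 probe that the platform annotation pairs with that gene alone, among 692 such probes for 691 genes. None of the 870 probes paired with several genes lists any of the 3. The annotation gives the name organelle transcript processing 70 for OTP70 (AT4G25270) and only locus names for the other two. That those belong to the family is general knowledge of the loci, which was not tested against sequence.

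Total RNA came from wild-type plants of the ecotype Wassilevskija, and expression was measured on arrays. In the proline group, 6 samples of plants had been treated with 100 mM proline for 6 h, a treatment meant to bring cellular proline to toxic levels. The 6 samples of the water group were titled as treated with water, with no duration given, so a difference in treatment time cannot be told apart from proline. No organ or age is given, nor whether each sample was its own set of plants, so every SD and p-value below reflects only how much these samples vary, and that variation may be technical.

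Pentatricopeptide repeat proteins are encoded in the nucleus and work in chloroplasts and mitochondria, where each protein binds one or a few organelle transcripts through a row of short helical repeats. They splice introns, edit bases, set transcript ends, stabilise RNA or help its translation. Plants have a very large family of them, and many single mutants show a defect in one organelle transcript. OTP70 is a chloroplast member that is needed for splicing of the intron of rpoC1, a plastid gene for a subunit of the plastid-encoded RNA polymerase.

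The deposited values are intensities on a scale that ends at 0 and 100, for 3439 probes. Sample medians lay between 0.171 and 0.188 in water and between 0.213 and 0.361 in proline, with proline samples 3 and 4 highest at 0.361 and 0.350. Because of this shift, each gene is given both as deposited and after quantile normalization, which gives every sample the same distribution of values. Normalized values under 0.0377 were set to that floor. The probe's percentile within its own sample is given as well, which depends on no scaling between samples. Quantile normalization sets each value by this rank, so the percentile is not independent of the normalized value. The count of probes at 0 ranged from 453 to 516 over the water samples and from 432 to 529 over the proline samples. Precision is limited by the number of arrays.

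AT5G15280, measured by the probe with the number 4186, was at or next to 0 in every water sample and clearly above it in every proline sample. In the deposited values 2 of the 6 water samples and 0 of the 6 proline samples were at 0. Water samples 1 and 2 were at 0, and water samples 3, 4, 5 and 6 stood at 0.0161, 0.0127, 0.00459 and 0.00203. Proline samples 1 to 6 stood at 0.254, 0.442, 0.392, 0.353, 0.408 and 0.385. The lowest proline value was thus far above the highest water value, and no sample fell between them. Proline sample 1 was the lowest of its group, and the other 5 lay between 0.353 and 0.442.

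After quantile normalization all 6 water samples of AT5G15280 were at the floor, and the proline mean was 0.309 ± 0.081 (SD, n = 6). Proline samples 1, 3 and 4 stood at 0.236, 0.247 and 0.226, and samples 2, 5 and 6 at 0.391, 0.385 and 0.373. The spacing thus changed with the scaling: samples 3 and 4, which had the highest medians, lay well above sample 1 as deposited and beside it after normalization. With this scaling and this floor the proline samples lay on average 7.97-fold above the floor (mean log2 2.99). Single samples ran from log2 2.58 above it in sample 4 to 3.37 in sample 2. With water at the floor, the average is a lower bound for the mean difference and not a measured ratio. The size of that bound follows from the floor and the scaling: the log2 value was 1.47 with a floor at the 20th percentile of positive values and 2.84 after cyclic loess. Within its sample the probe ranked at percentiles 7.14 to 15.9 in water and 50.4 to 67.9 in proline, from among the dimmest probes to at or above the middle. The 2 groups did not overlap, as for 10.4% of all tested probes in the higher direction. Since the gene was chosen for this contrast, nothing is read from that.

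**Figure D1:**
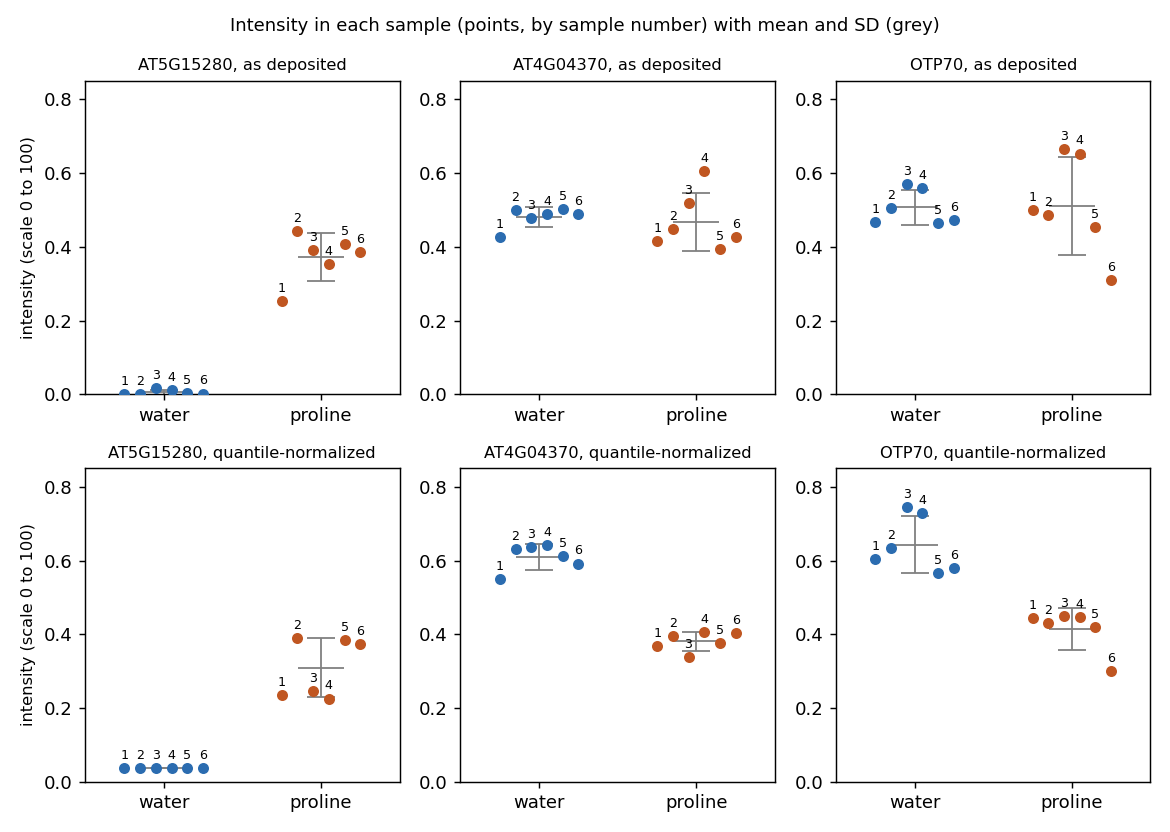
Intensity of AT5G15280, AT4G04370 and OTP70 in each of the 6 water and 6 proline samples, as deposited (top) and after quantile normalization (bottom), on the linear scale that runs to 100; points carry the sample number, and grey marks are the mean and SD. AT5G15280 was separate in both rows, while AT4G04370 and OTP70 overlapped as deposited and did not after normalization.

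AT4G04370 had nearly the same deposited intensity in both groups and a lower place among the probes of its sample with proline. As deposited, water samples 1 to 6 stood at 0.428, 0.499, 0.479, 0.488, 0.504 and 0.488. Proline samples 1 to 6 stood at 0.415, 0.448, 0.518, 0.605, 0.393 and 0.426. The groups overlapped: proline samples 3 and 4 lay above all water samples, and samples 1, 5 and 6 lay below all of them. The mean over water samples was 0.481 ± 0.027 and that over proline samples 0.468 ± 0.080 (SD, n = 6 each). No sample was at 0 in either group.

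After quantile normalization, the water mean of AT4G04370 was 0.610 ± 0.035 and its proline mean 0.381 ± 0.026 (SD, n = 6 each), and the groups no longer overlapped. Water samples lay between 0.549 and 0.641 and proline samples between 0.339 and 0.406. The log2 difference was -0.68 (SE 0.08), with proline 1.60-fold lower. Within its sample the probe ranked at percentiles 77.0 to 80.3 among water samples and 63.6 to 69.0 among proline samples. Its rank was thus lower in each proline sample than in any water sample, which restates the normalized values. The ranks also kept proline sample 4, the highest as deposited, beside the others of its group.

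OTP70, the chloroplast splicing factor, showed much the same picture as AT4G04370. As deposited, water samples 1 to 6 stood at 0.469, 0.504, 0.571, 0.561, 0.465 and 0.472. Proline samples 1 to 6 stood at 0.5004, 0.485, 0.667, 0.653, 0.455 and 0.309. The groups overlapped: proline samples 3 and 4 were the highest of all 12 samples and proline sample 6 the lowest. The water mean was 0.507 ± 0.048 and the proline mean 0.512 ± 0.134 (SD, n = 6 each), and no sample was at 0.

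After quantile normalization the water mean of OTP70 was 0.643 ± 0.077 and its proline mean 0.415 ± 0.057 (SD, n = 6 each). Water samples ran from 0.567 to 0.745, highest in samples 3 and 4, and proline samples from 0.301 in sample 6 to 0.450 in sample 3, without overlap. The log2 difference was -0.64 (SE 0.12), with proline 1.55-fold lower. Its percentile ran from 77.7 to 83.3 over the water samples and from 59.9 to 71.9 over the proline samples. For both this gene and AT4G04370 the groups were apart in the lower direction, as for 12.1% of all tested probes, and they were chosen for that contrast.

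**Figure D2:**
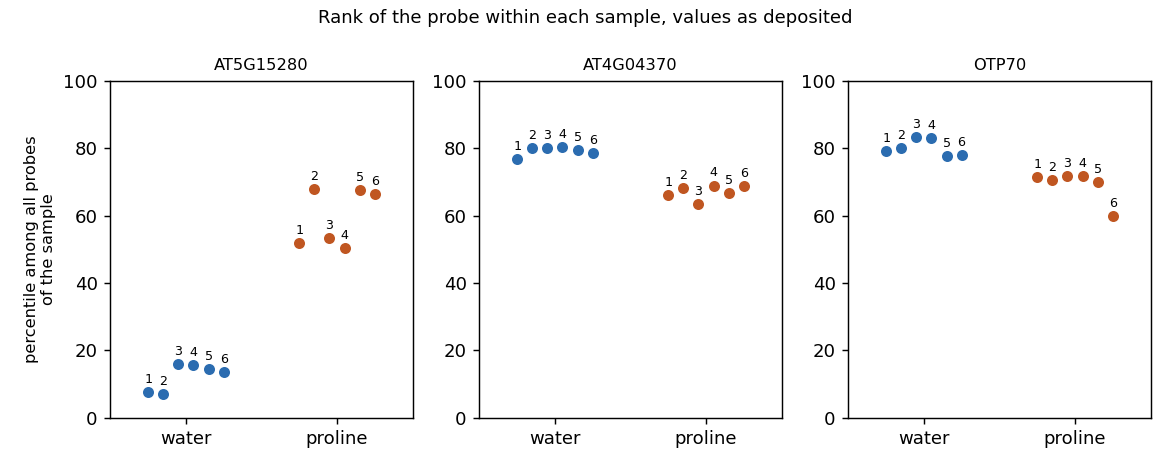
Percentile of each gene's probe among all 3439 probes of the same sample, from values as deposited, for 6 water and 6 proline samples (points with sample numbers); the axis runs from 0 to 100. AT5G15280 stood at 7.14 to 15.9 in water and 50.4 to 67.9 in proline, and the probes of AT4G04370 and OTP70 ranked lower in every proline sample than in any water sample.

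The scaling between samples decided whether AT4G04370 and OTP70 differed at all in absolute terms. In the values as deposited their log2 differences were -0.06 and -0.03, while the median of all tested probes was 0.41 higher with proline. Subtracting that median left -0.47 and -0.44. The same subtraction left -0.65 and -0.61 under quantile normalization, -0.53 and -0.50 after median centring, and -0.64 and -0.60 after cyclic loess. Under each of these 4 scalings their differences lay below the difference of the median probe. The scalings act on the same values and the genes were chosen from this contrast, so the 4 are not separate evidence. In bulk RNA, fewer cells that express a gene and less of its RNA per cell cannot be told apart, and a scaled intensity does not tell a lower level of these transcripts from a higher level of most others. AT5G15280 was at 3.03, 3.14, 2.84 and 2.87 relative to the median under quantile normalization, median centring, cyclic loess and as deposited.

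**Figure D3:**
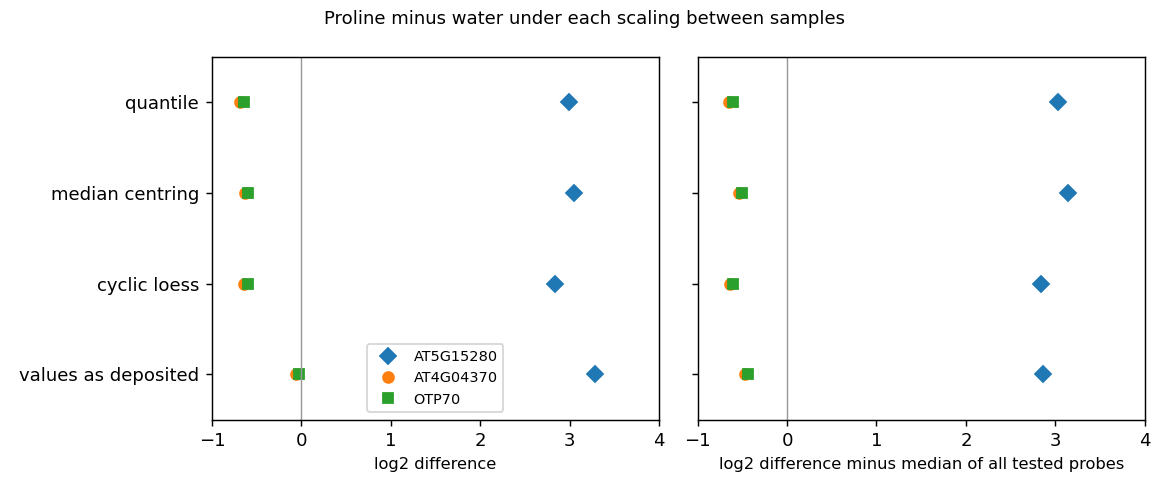
Log2 difference between proline and water (6 samples each) for the 3 genes under quantile normalization, median centring, cyclic loess and the values as deposited, as such (left) and minus the median of all tested probes (right). AT4G04370 and OTP70 lay near 0 as deposited, at -0.06 and -0.03, and their differences lay below that of the median probe under all 4 scalings.

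Samples of the same number in both groups can also be set side by side. In the normalized values, proline minus water of the same number ran from -0.91 to -0.56 on the log2 scale for AT4G04370. For OTP70 it ran from -0.94 to -0.43. All 6 numbers of each gene were below 0, which any pairing would give because the normalized groups did not overlap. In the deposited values the ratio of proline to water was above 1 for numbers 3 and 4 of AT4G04370 (1.08 and 1.24). It was above 1 for numbers 1, 3 and 4 of OTP70 (1.07, 1.17 and 1.16) and 0.654 for number 6. For AT5G15280 the deposited ratios with a water value above 0 were 24.3, 27.7, 88.9 and 190 for numbers 3 to 6, each over a water value under the floor.

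Samples 1 and 2, 3 and 4, and 5 and 6 of a group resembled each other more than other samples did, with median absolute log2 differences over all probes of 0.149 to 0.178 against 0.227 to 0.398. The n of 6 may therefore count repeat measurements. AT4G04370 differed by 0.01 to 0.20 within these pairs in water and by 0.10 to 0.26 in proline. Outside these pairs its median difference was 0.10 in water and 0.11 in proline, with highest values of 0.22 and 0.25. For this gene the largest difference in proline was thus within a pair. OTP70 differed by 0.03 to 0.07 in water, and in proline by 0.05 and 0.01 for the first pairs but by 0.48 between samples 5 and 6. AT5G15280 differed by 0.73 between proline samples 1 and 2, by 0.13 between 3 and 4 and by 0.05 between 5 and 6. For water samples outside these pairs, the median difference of OTP70 was 0.25, with a highest value of 0.39. For proline samples outside these pairs, the median difference was 0.08 for OTP70, with a highest value of 0.58, and 0.65 for AT5G15280, with a highest value of 0.79.

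Among the other pentatricopeptide repeat genes with a probe of their own, 0 rose and 3 fell with proline in a limma fit of all probes with Benjamini-Hochberg adjustment. There were 18 such genes: 3 from a list written earlier (AT3G22690, CRR21 and OTP85) and 15 recognised afterwards among the loci in the probe table. All were chosen with earlier results of these data known. Of the 18, 13 were above the floor in at least 1 sample and were tested; AT3G22690, OTP85, AT2G30100, AT4G14050 and AT5G02830 were at the floor in all 12 samples. For comparison, 19.0% of the 620 tested probes with 1 gene were called higher and 18.2% lower, and 17.1% and 20.9% of all 3097. The median log2 difference of the 13 was -0.08, against -0.03 over all tested probes. The count that fell and the median were thus near those of the array as a whole, and none of the 13 passed in the direction of AT5G15280. An unadjusted limma p under 0.05 was found for 4 of the 13, against 45.1% of all tested probes. In the values as deposited, which carry the upward shift of most probes, 5 of them rose and 2 fell, where 38.6% of all tested probes were called higher and 5.77% lower.

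The 3 genes that fell were AT3G26630, AT2G19280 and AT3G51320. AT3G26630 had a water mean of 11.3 ± 1.2 and a proline mean of 7.09 ± 0.67 (SD, n = 6 each), a log2 difference of -0.68 (SE 0.10, limma adjusted p = 0.000248). Water samples ran from 9.58 to 12.8 and proline samples from 6.13 to 7.77, without overlap, and the deposited values did not overlap either. It passed as well with the values as deposited (limma adjusted p = 0.000928) and when each such pair of samples was averaged first, giving 3 values per group (limma adjusted p = 0.0382). It passed under all 4 scalings, whereas AT4G04370 and OTP70 had differences near 0 as deposited.

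AT2G19280 went from 1.999 ± 0.09 to 1.38 ± 0.24 (SD, n = 6 each; log2 difference -0.55, limma adjusted p = 0.00184), with proline sample 3 highest of its group at 1.83. AT3G51320 went from 1.31 ± 0.09 to 1.005 ± 0.084 (log2 difference -0.39, limma adjusted p = 0.00366). With the means of pairs neither passed (limma adjusted p = 0.068 and 0.118). As deposited, AT3G51320 had a log2 difference of 0.01 (limma adjusted p = 0.941), or -0.40 relative to the median difference, which is the picture seen for AT4G04370 and OTP70.

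Of the genes that did not pass, the largest differences were those of AT1G79080 and AT3G49740. AT1G79080 had a water mean of 0.145 ± 0.038 and a proline mean of 0.202 ± 0.039 (SD, n = 6 each; log2 difference 0.50, limma adjusted p = 0.0564), with overlapping groups. It passed with the replicate number as a block (limma adjusted p = 0.0211) but not when pairs of samples were averaged first (limma adjusted p = 0.206). It also passed without water sample 2, water sample 4, proline sample 5 or proline sample 6 (limma adjusted p = 0.037, 0.033, 0.0443 and 0.0405). AT3G49740 had a log2 difference of -0.50 (SE 0.34, limma adjusted p = 0.283), with proline samples from the floor to 0.207. CRR21, which is needed for editing of a plastid ndhD transcript, had -0.19 (SE 0.31, limma adjusted p = 0.665). OTP85, another plastid editing factor, was at 0 as deposited in 5 of 6 water and 4 of 6 proline samples.

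**Figure D4:**
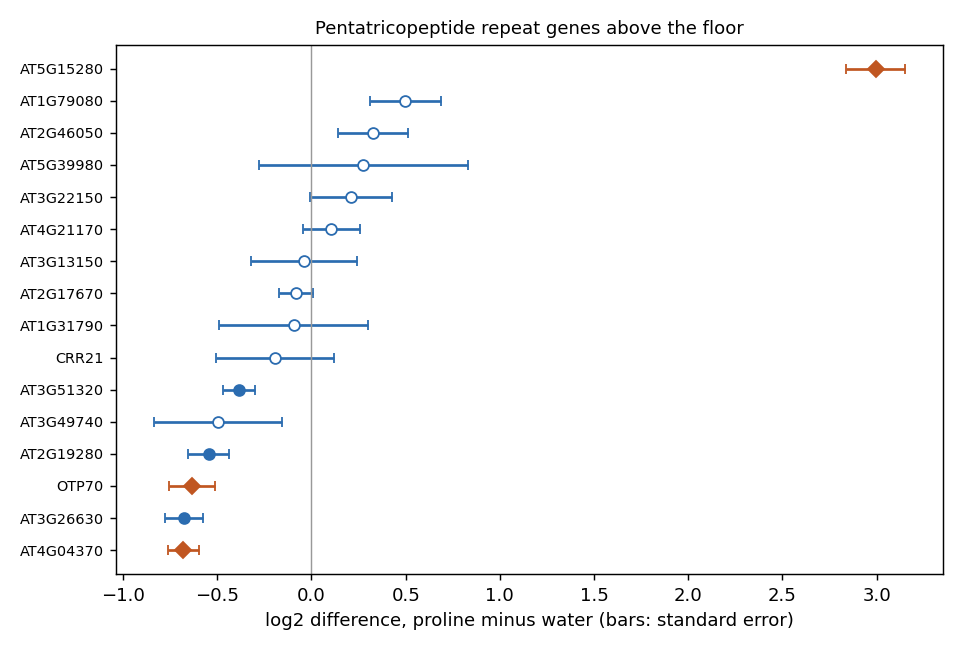
Log2 difference between proline and water for the 16 pentatricopeptide repeat genes above the floor in at least 1 of 12 samples; bars are standard errors of the limma fit. Orange diamonds are AT5G15280, AT4G04370 and OTP70, which were chosen from this contrast and have no test; filled blue circles passed the test (AT3G26630, AT2G19280 and AT3G51320) and open circles did not.

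Few listed genes for other organelle RNA factors could be set beside them, and the lists may leave out others that the array measures. Of 57 listed genes for editing cofactors, intron splicing factors, organelle RNA polymerases and sigma factors, ribonucleases and RNA-binding proteins, 0 had a probe of their own. Of 7 genes of the mTERF family, whose proteins act on organelle transcription and RNA, recognised in the probe table afterwards, 1 rose and 1 fell, beside the 17.1% and 20.9% of all tested probes. AT3G46950 rose from 0.461 ± 0.105 to 0.885 ± 0.441 (SD, n = 6 each; log2 difference 0.83, limma adjusted p = 0.0374). Proline samples 3 and 4 stood at 1.48 and 1.41 and the other 4 proline samples between 0.510 and 0.763; without samples 3 and 4 the log2 difference was 0.41 (limma adjusted p = 0.121). It did not pass with no floor either (limma adjusted p = 0.0532). AT4G09620 fell from 1.24 ± 0.14 to 0.789 ± 0.204 (limma adjusted p = 0.00854). Neither passed when pairs of samples were averaged first (limma adjusted p = 0.193 and 0.113), and AT4G09620 did not with the values as deposited (limma adjusted p = 0.313). AT3G46950 no longer passed without water sample 1, 2, 5 or 6 (limma adjusted p = 0.070, 0.0629, 0.081 and 0.0629) or without proline sample 1, 3 or 4 (limma adjusted p = 0.0577, 0.0751 and 0.0795). It did pass with median centring, cyclic loess, the replicate block and the values as deposited (limma adjusted p = 0.00748, 0.0175, 0.00578 and 0.00192). AT4G09620 passed with median centring, cyclic loess and the replicate block (limma adjusted p = 0.0221, 0.014 and 0.0197).

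The profiles most like each gene were found among tested probes with 1 gene by the root mean square log2 difference over the 12 samples, after the water mean of each probe was set to zero. For AT5G15280 these were AT1G12800 (0.236), AT5G65220 (0.344) and AT1G76450 (0.375), where the median over all such probes was 2.17. All 3 had large differences of their own, with log2 values of 3.01, 2.85 and 2.79, but were above the floor in water. The water mean of AT1G12800 was 0.720 ± 0.124 and its proline mean 5.82 ± 1.17 (SD, n = 6 each). The likeness rests on the difference between groups, since AT5G15280 had no measured spread in water. For AT5G15280 that difference depended on the floor (log2 1.47 with a floor at the 20th percentile and 7.93 with no floor). The 3 nearest genes hold for the floor used here, and the ranking with other floors was not tested.

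For AT4G04370 the most alike were AT4G22830 (0.127), AT5G03900 (0.143) and AT4G24930 (0.150), and for OTP70 they were AT2G30320 (0.172), AT2G43180 (0.177) and AT4G24930 (0.194). The median over all such probes was 0.641 for both. AT4G24930 was thus among the 3 nearest of both genes, with a water mean of 1.03 ± 0.03 and a proline mean of 0.713 ± 0.053 (SD, n = 6 each). Its log2 difference was -0.54. With water means set to zero, a similar difference between groups by itself brings profiles close, so nothing further is read from this likeness. In the gene order of the RefSeq assembly TAIR10.1, the only gene within 3 protein-coding places of any of the 3 genes that has a probe of its own is AT4G25290, which lies 2 places from OTP70. It went from 1.87 ± 0.33 to 0.371 ± 0.092 (SD, n = 6 each; log2 difference -2.35, SE 0.18), against -0.64 for OTP70.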

How the data were processed

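The authors deposited 1 table of intensities from 0 to 100 for 3439 probes and 12 samples; scanning, background correction and scaling, each not given in the sources used here, precede these values, and the meaning of 0 and 100 is unknown. Groups and numbers 1 to 6 come from the sample titles. Probes were named through GEO's platform annotation, which can be old; 690 of the 692 probes with 1 gene matched RefSeq (TAIR10.1) by gene number.

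Values were quantile-normalized, floored at 0.0377 (the 5th percentile of positive deposited values) and log2-transformed. A probe at the floor in every sample was not tested, which removed 342. Proline was compared with water over 3097 probes with lmFit and eBayes of limma 3.58.1 (R 4.3.3), two-sided, with Benjamini-Hochberg adjustment and a threshold of 0.05, and the script was tested on simulated data. Adjusted p-values are given only for genes other than AT5G15280, AT4G04370 and OTP70. The members and lists were chosen with earlier results of these data known, and the longer gene lists after the probe table was seen. Genes named are the 3 members, listed genes that passed, the pair with the largest differences that did not, and the 3 nearest profiles of each member; other names were chosen after their values were seen.

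Same-numbered water and proline samples deviated from their group means together (r = 0.46, 0.47, 0.29, 0.30, 0.20 and 0.16 for numbers 1 to 6, each above 0.1), which meets the limit set for pairing by number. The fit behind every SE, p-value and call in the report has no block, as planned, and the block is an alternative. Others were median centring, cyclic loess, values as deposited, other floors, a filter on dim probes, means of near-repeat pairs and leaving out samples.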

Additional observations from a re-analysis of the deposited data

Results flagged for a closer look

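In 4 of 31 groups of 6 values among the tested pentatricopeptide repeat genes, 1 sample lay far from the others of its group. For independent, normally distributed values chance gives about 1 in 20. Pairs of samples resembled each other here, so that rate may not hold. For OTP70 the far sample was proline sample 6 at 0.30123, with the rest of that group between 0.421 and 0.450. CRR21 stood at 0.23519 in water sample 4, against 0.499 to 0.579. AT3G51320 stood at 1.4803 in water sample 6, against 1.25 to 1.31, and AT4G21170 at 0.96209 in water sample 3, against 0.853 to 0.881. Without proline sample 6 the log2 difference of OTP70 was -0.55.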

How the results depend on the processing

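AT5G15280, AT4G04370 and OTP70 kept the sign of their log2 difference under every alternative that gave a value. AT5G15280 was left out when the dimmest 25% of probes were. Their normalized groups did not overlap, so leaving out samples, averaging pairs or adding the block could not change the sign. With the values as deposited the differences were 3.28, -0.055 and -0.027, the last 2 from overlapping groups. AT5G15280, whose size depends on the floor, was at 1.47 with a floor at the 20th percentile and 7.93 with no floor. Leaving out 1 sample gave 2.92 to 3.08, -0.71 to -0.65 and -0.67 to -0.55. Over all probes, 529 higher and 647 lower calls became 1191 and 178 with the values as deposited (87.0% higher, against 45.0%) and 260 and 270 with the means of pairs; leaving out 1 sample gave 491 to 522 and 582 to 630. Of the 15 added pentatricopeptide repeat genes, 0 rose and 3 fell. With the values as deposited 5 rose, and AT2G17670 turned from -0.08 to 0.55 and AT3G51320 from -0.39 to 0.012. With cyclic loess, the floor at the 20th percentile, no dim probes or the replicate block 1 rose, AT1G79080, and leaving out 1 sample gave 0 to 1. With the means of pairs 1 fell. With the replicate block 584 and 698 probes were called higher and lower, and the block changed no other call named in the report. No listed organelle RNA gene had a probe of its own, so those results have no value. A floor and a ceiling of unknown meaning limit what low and high values show.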

Other observations

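The probes numbered next to that of AT5G15280 are unnamed here. Probe 4185 had a log2 difference of 0.60 and probe 4187 one of 0.26, against 2.99 for AT5G15280. Around OTP70, probes 1814 and 1816 had -0.78 and -1.16. Around AT4G04370, AT4G27700 (probe 2344) had -1.08 and probe 2348 had -0.32. The sources used here do not say whether these numbers follow positions on the array.

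AT5G39980 was at 0 as deposited in 2 of 6 water and 3 of 6 proline samples, more often than any other tested pentatricopeptide repeat gene. Samples 3 and 4 were its highest in both groups, at 0.115 and 0.101 in water and 0.328 and 0.327 in proline as deposited. CRR21 was lowest in sample 4 of both groups after normalization, at 0.235 in water and 0.184 in proline.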
